A study of Mus musculus with 8 samples.

Results

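Long noncoding RNAs with an appreciable level in epididymal fat, the visceral fat pad beside the epididymis of male mice, were compared between Atg3 knockout (KO) and wild-type (WT) mice. They were taken as the rows of the deposited table that carry the type lincRNA (long intergenic noncoding RNA) and have a count of at least 50 in each of the 8 libraries. The rows were thus selected on their counts in all 8 libraries, KO and WT alike. The threshold left 63 rows of the 1314 typed lincRNA (4.79%), in a table of 37417 genes. The KO group was 4 male C57Bl/6 mice with genotype Adiponectin-Cre ERT2-Atg3 flox/flox, and the WT group was 4 male C57Bl/6 mice. All 8 mice received tamoxifen and ate chow, and ages are not given in the labels. The adiponectin promoter drives Cre in adipocytes, whereas the libraries were made from whole fat, which also holds vessels, immune cells and fibroblasts. The 8 libraries are polyadenylated RNA, so noncoding RNAs without a poly(A) tail are outside the measurement.

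Long noncoding RNAs are transcripts, often spliced and polyadenylated, that are not known to be translated. Some stay in the nucleus and take part in the architecture of nuclear bodies or of chromosomes, such as Malat1 in nuclear speckles and Firre on the X chromosome. Others are hosts, meaning that small nucleolar RNAs or microRNAs are cut from their introns or exons, and a few act on microRNAs, such as Cyrano, which directs the destruction of miR-7. Atg3 is the enzyme that joins LC3 to phosphatidylethanolamine on growing autophagosomes, and it is the gene deleted here.

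The microRNA site in Cyrano and the mature microRNAs carried by 2 host rows show what these transcripts hold, and are given before the levels. Cyrano is the row 1700020I14Rik (Oip5os1 in RefSeq), and the first line is the RNA's miR-7 site, at positions 2935 to 2959 of its 8300-base GENCODE M21 transcript, with the bases opposite the microRNA's seed in capitals. Of the 23 bases of miR-7a-5p, 22 can pair with this stretch of 25 bases. The microRNA lines are RefSeq mature sequences (GRCm38.p6) with the seed, bases 2 to 8, in capitals. miR-17-5p and miR-20a-5p share 1 seed, and miR-19a-3p and miR-19b-3p share another.
miR-7 site in 1700020I14Rik: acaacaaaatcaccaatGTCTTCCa
mmu-miR-7a-5p: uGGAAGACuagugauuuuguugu
mmu-miR-17-5p, from Mir17hg: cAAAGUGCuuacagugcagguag
mmu-miR-20a-5p, from Mir17hg: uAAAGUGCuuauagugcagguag
mmu-miR-18a-5p, from Mir17hg: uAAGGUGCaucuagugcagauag
mmu-miR-19a-3p, from Mir17hg: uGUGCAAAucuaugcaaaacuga
mmu-miR-19b-3p, from Mir17hg: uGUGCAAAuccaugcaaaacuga
mmu-miR-92a-3p, from Mir17hg: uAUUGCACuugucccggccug
mmu-miR-142a-5p, from A430104N18Rik: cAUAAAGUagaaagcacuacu
mmu-miR-142a-3p, from A430104N18Rik: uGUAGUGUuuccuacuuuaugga
A second stretch of Cyrano also holds the seed match GTCTTCC, at positions 750 to 769, where 11 bases of miR-7a-5p can pair. Mature microRNAs were not measured in these poly(A) libraries. The hairpin rows of the miR-17 cluster held 0 reads in all libraries, apart from 1 read in the row Mir92-1, and the Mir142 row held 8 reads over the 8 libraries.

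Total counts ranged from 10986375 in WT1 to 21688464 in KO4. Atg3 had 30.5, 32.2, 30.8 and 27.8 CPM (the count scaled to library size with edgeR's TMM factors) in the KO libraries, against 49.1, 44.5, 53.6 and 53.5 CPM in the WT libraries. It was lower in KO by 0.73 on the log2 scale (log2 fold change -0.73, SE 0.086; edgeR quasi-likelihood test, Benjamini-Hochberg adjusted p = 0.0168). The summed level of 10 adipocyte markers was 27857 to 32426 CPM in KO libraries and 32587 to 39872 CPM in WT libraries, with Adipoq and Plin1 present in each library. Of these 10 markers, 9 had a negative log2 fold change of KO over WT and 1 a positive one, and 0 were called by edgeR. The summed level of 15 duct epithelium markers was 46.8, 560, 570 and 53.6 CPM in KO1 to KO4, against 14.03 to 32.03 CPM in WT libraries, so KO2 and KO3 stood apart. In whole tissue, fewer cells of a type and less RNA per cell cannot be told apart.

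Of the 1314 lincRNA rows, 995 had no read in at least 1 library and 529 had none in any. Past the same threshold were 11043 of 21064 protein-coding rows (52.4%). Nearest to the threshold from above were A230072C01Rik and A430035B10Rik, each with a lowest count of 50, followed by Gm11818, 2500004C02Rik and 4833418N02Rik, each with 51. Just below it were 1110018N20Rik and 4933407K13Rik, each with a lowest count of 49, and D730003I15Rik with 46. The lowest count of a row stood in WT3 for 23 rows and in WT1 for 19, which are among the libraries with the fewest reads. Because every library had to reach 50 counts, an RNA that is nearly absent from 1 genotype could not enter. The architectural RNA Neat1 and the snoRNA host Gas5 are typed non_coding in the table and are therefore not among the 63, and H19, typed lincRNA, fell below with a lowest count of 7.

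The levels of the 63 rows spanned a wide range. On the length-corrected scale of the deposited FPKM values, the mean over 8 libraries had a median of 4.86 and ran from 0.941 FPKM for A430035B10Rik to 51.1 FPKM for Malat1. The next levels were 39.8 FPKM for BC029722, 39.2 for 2410006H16Rik, 38.1 for 1810058I24Rik, 31.2 for C330006A16Rik, 26.1 for 1500011K16Rik, 23.5 for A430104N18Rik and 21.5 for Gm17251. A430104N18Rik is the shortest of the rows at 269 bases, and its FPKM rests on few reads, with a mean count of 89.1 and a lowest count of 52. Malat1 had 50.4 ± 6.2 FPKM in KO libraries and 51.8 ± 14.6 FPKM in WT libraries (SD, n = 4 each). The WT values of BC029722 (34.7 to 45.9 FPKM) overlapped those of 1810058I24Rik (27.8 to 44.6 FPKM), so the order of these neighbours was not fixed by their spread. The rows made up 0.152% to 0.204% of a library's counts, and Malat1 alone held 20.5% of the reads of the 63. Their median exonic length was 2784 bases, from 269 to 18089 (Meg3), against 1075 bases for the lincRNA rows below the threshold.

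**Figure D1:**
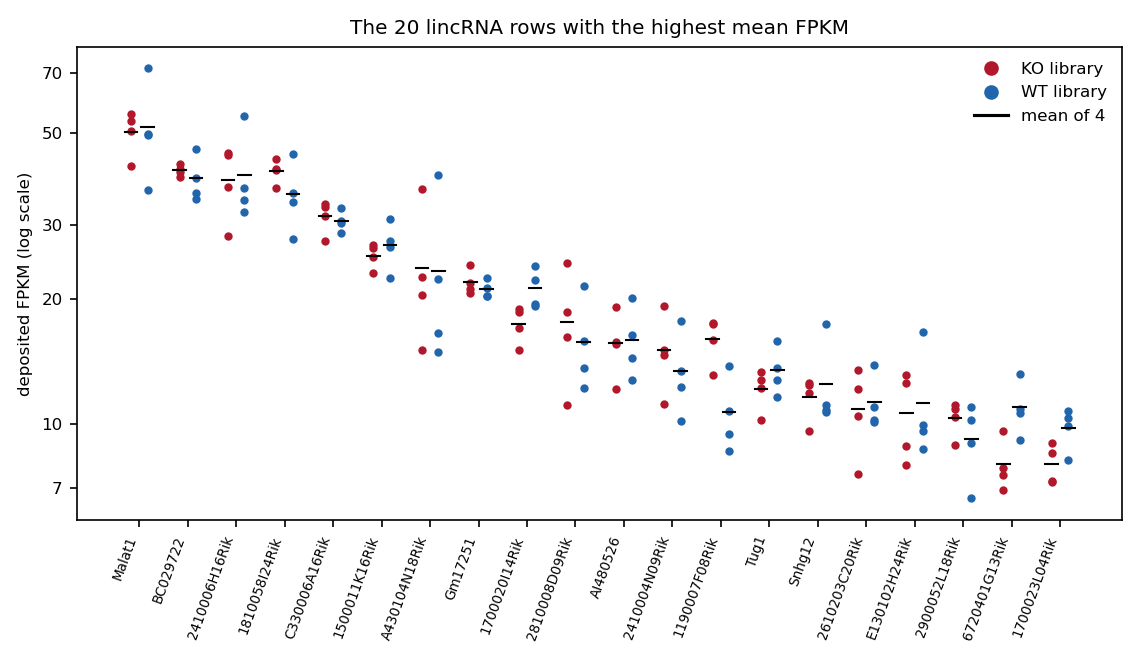
Deposited FPKM (log axis) of the 20 rows with the highest mean level, with KO libraries left of WT libraries, 1 point per library and a bar at the mean of 4. Malat1 leads with a mean of 51.1 FPKM over the 8 libraries, and KO and WT points overlap in its pair of columns.

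The label intergenic and noncoding was checked against 2 later annotations. In GENCODE M21, which uses the same genome build (GRCm38) as the table's mm10 coordinates, 62 of the 63 identifiers were found. They were typed processed_transcript for 25, lincRNA for 18, antisense for 9, bidirectional promoter lncRNA for 2 and polymorphic pseudogene for 1 (Atp10d). The other 7 were typed protein_coding, and RefSeq, which matched 55 rows, typed these 7 and 2 more (1810058I24Rik and C330006A16Rik) as protein_coding. Among them 5430416O09Rik is Spaar, a small lysosomal protein that restrains mTORC1 activation by amino acids. 1500011K16Rik is Mtln, a micropeptide of the inner mitochondrial membrane, and 1190007F08Rik is Smim1, a small membrane protein that carries the Vel blood group antigen on human red cells. Nlrc5, a transactivator of MHC class I genes, is also among them, as are 9930104L06Rik, Gm11818 (Triqk) and BC029722. The type lincRNA is thus the table's own: GENCODE M21 gives it to 18 of the 63, and 9 are protein-coding in at least 1 of the later annotations. The text therefore speaks of lincRNA rows.

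By position, 20 of the 63 rows overlapped the body of a protein-coding gene of the table, and the 43 others lay at a median of 3023 bases from the nearest one. Exons of an opposite-strand gene overlapped the row's own exons in 32 cases in GENCODE M21, and exons of a same-strand gene in 11. No source used here says if strand entered the counting, and rows that overlap another gene therefore have uncertain counts. The rows lay on 17 chromosomes, with 14 on chromosome 11, 10 on chromosome 4 and 8 on chromosome 2.

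Between the genotypes, none of the 63 rows changed at an adjusted p under 0.05. The edgeR quasi-likelihood test with Benjamini-Hochberg adjustment over 14800 tested genes called 0 of the 63, against 60 of all tested genes (0.405%; 0.277% higher and 0.128% lower in KO), and the lowest adjusted p of a lincRNA row among the 63 was 0.110. An unadjusted p under 0.05 was reached by 10 of the 63 (15.9%; 4 higher and 6 lower in KO), against 16.2% of all tested genes (8.52% higher and 7.66% lower). The libraries of the 2 genotypes did not overlap for 8 rows (12.7%; 2 higher and 6 lower in KO), against 8.86% of all tested genes (4.32% higher and 4.54% lower). The first share is near that of the whole table, and neither is read as particular to these rows. With DESeq2 4 of the 63 and 810 of all tested genes passed, and with limma-voom 0 of the 63 and 45 genes. Leaving out a library moved the count over all genes to 290 without KO1, 0 without KO2, 23 without KO3 and 44 without KO4, and to 7, 4, 20 and 8 without WT1, WT2, WT3 and WT4, while 0 of the 63 were called each time. Without KO2 the unadjusted p of edgeR was under 0.05 for 1573 genes. Without both KO2 and KO3, the libraries high in duct epithelium markers, edgeR called 0 of the 63, and an unadjusted p under 0.05 was reached by 6 of them (9.52%), against 8.52% of all genes tested in that fit.

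Differences were small in both directions. The log2 fold change of KO over WT was positive for 25 rows and negative for 38, with a median of -0.05 (-0.01 over all tested genes), a lower quartile of -0.24 and an upper quartile of 0.14. The median was -0.04 to -0.03 under the other scalings of library size. Without KO1, KO2, KO3 and KO4 in turn it was -0.05, -0.05, -0.10 and 0.02, and without WT1, WT2, WT3 and WT4 in turn it was 0.01, -0.08, -0.08 and -0.06. Without both KO2 and KO3 it was -0.13. The lowest value was -0.61 (D830026I12Rik) and the highest 0.75 (1500017E21Rik), and 3 rows differed by more than 1.5-fold and 0 by more than 2-fold. The 95% interval of the difference lay inside a 2-fold change in either direction for 58 of the 63 (92.1%), against 81% of all tested genes. For 31 rows (49.2%) it lay inside 1.5-fold, against 57.9% of all tested genes. The 5 rows whose interval reached past 2-fold were 1500017E21Rik, D830026I12Rik, Nlrc5, 4933431E20Rik and B430010I23Rik. The median SE of a log2 fold change was 0.186 for the 63 rows and 0.146 for all tested genes.

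**Figure D2:**
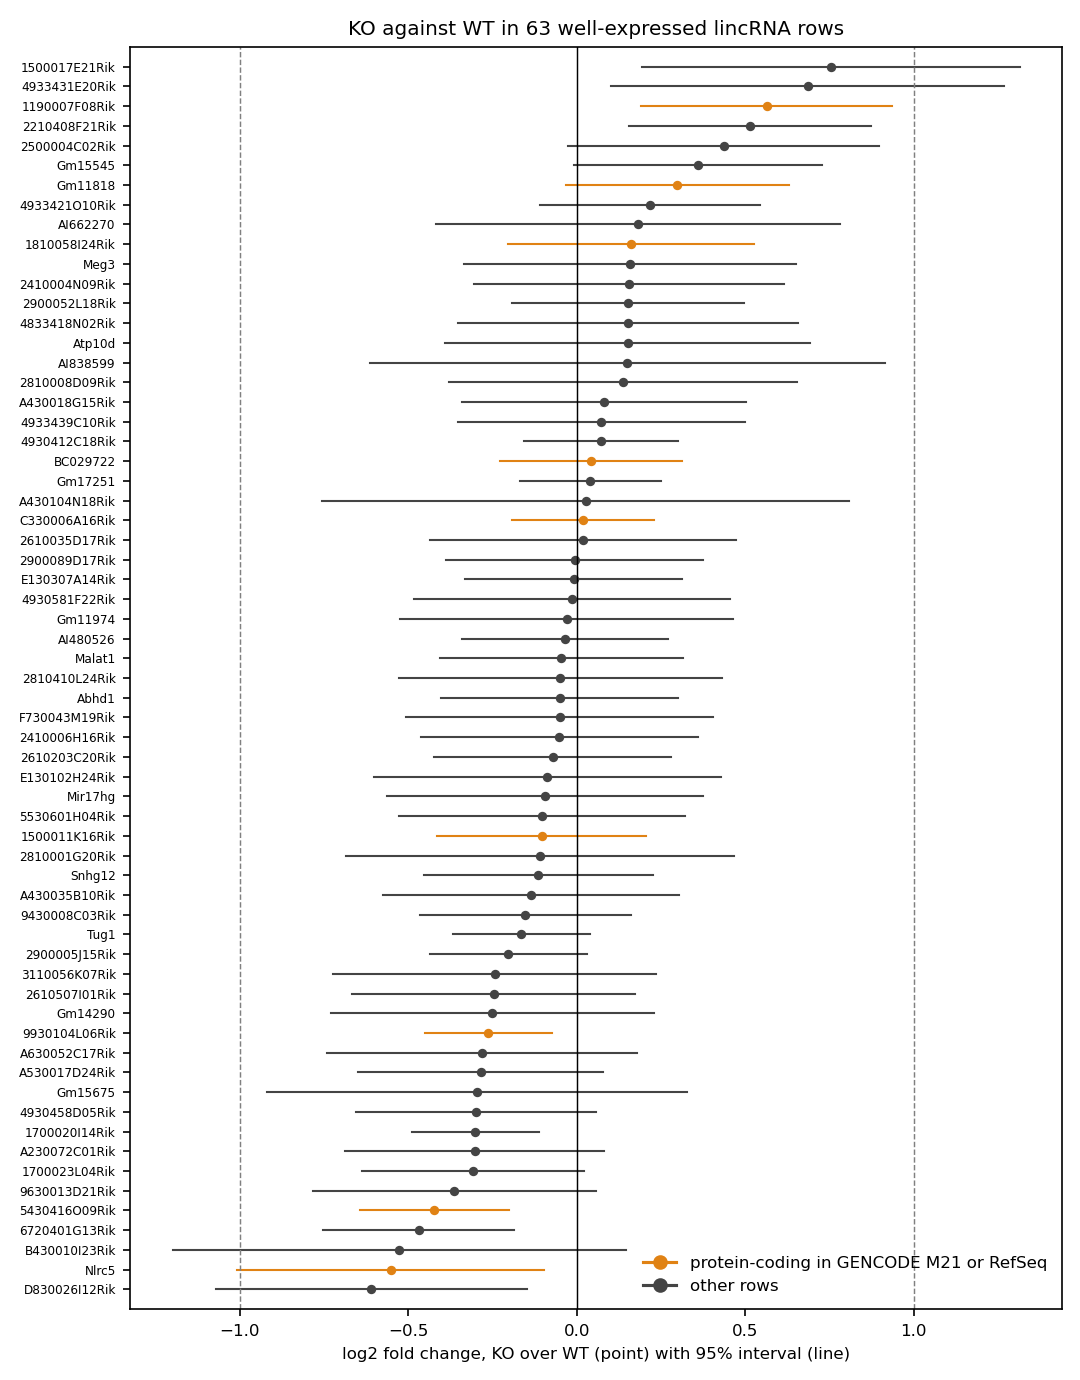
Log2 fold change of KO over WT (point) with its 95% interval (line) from edgeR for each of the 63 rows, ordered from highest to lowest, with rows that GENCODE M21 or RefSeq types as protein-coding in orange and dashed lines at a 2-fold change. The points run from 0.75 to -0.61, and 58 of the 63 intervals lie between the dashed lines.

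The row with the lowest p was 5430416O09Rik, the Spaar gene (chr4:43730034-43734534, plus strand, mm10). It had 16.5, 15.5, 16.4 and 18.2 CPM in the KO libraries, against 21.4, 20.5, 24.4 and 23.1 CPM in the WT libraries. Each KO library lay below each WT library, with means of 16.7 ± 1.14 CPM in KO and 22.4 ± 1.72 CPM in WT (SD, n = 4 each). The estimate for Spaar was a log2 fold change of -0.42, with a 95% interval from -0.64 to -0.20 (edgeR adjusted p = 0.110; 0.0151 with DESeq2). Hrct1, the nearest protein-coding gene at 1395 bases, had 29.1, 29.0, 26.8 and 30.5 CPM in KO libraries and 33.5, 31.3, 42.7 and 41.6 CPM in WT libraries, a log2 fold change of -0.37 (edgeR adjusted p = 0.174).

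6720401G13Rik is Firre (chrX:50555744-50635321, minus strand), a nuclear RNA that brings distant chromosome regions together. Its levels were 11.2, 10.8, 13.2 and 10.4 CPM in KO libraries and 17.9, 15.4, 14.03 and 15.8 CPM in WT libraries. The groups did not overlap, although KO3 and WT3 were close together. For Firre the log2 fold change was -0.47, with a 95% interval from -0.75 to -0.18 (edgeR adjusted p = 0.140; 0.0280 with DESeq2).

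1700020I14Rik (Cyrano; chr2:119594297-119607502, plus strand), whose miR-7 site is printed above, was second to Malat1 among the 63 by mean count, at 2343 reads. It had 154, 141, 149.8 and 131 CPM in KO libraries, against 188, 186, 173 and 162 CPM in WT libraries. Again the groups did not overlap, with 144 ± 10.4 CPM in KO and 177 ± 12.3 CPM in WT (SD, n = 4 each). Cyrano's log2 fold change was -0.30, with a 95% interval from -0.49 to -0.11 (edgeR adjusted p = 0.145; 0.0198 with DESeq2). Its nearest protein-coding gene, Oip5 at 2010 bases on the opposite strand, had a log2 fold change of 0.24 (edgeR adjusted p = 0.815), and the Mir7-1 hairpin row held 45 reads in all.

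1190007F08Rik, the Smim1 gene (chr4:154020588-154026152, minus strand), was the row with the lowest p among those with a higher level in KO. It had 66.3, 88.1, 84.6 and 84.0 CPM in KO libraries and 41.2, 48.3, 58.2 and 70.8 CPM in WT libraries. The groups overlapped, since KO1 lay below WT4. For Smim1 the fit gave a log2 fold change of 0.56, with a 95% interval from 0.19 to 0.94 (edgeR adjusted p = 0.159; 0.0343 with DESeq2). The row shares 18.1% of its exonic bases in GENCODE M21 with opposite-strand exons; Lrrc47, which it overlaps, had 51.1 to 56.8 CPM in KO libraries and 50.8 to 59.1 CPM in WT libraries (log2 fold change 0.02).

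2210408F21Rik (chr6:31220351-31337404, plus strand) had 8.70, 9.04, 8.85 and 9.71 CPM in KO libraries, against 5.07, 5.82, 7.05 and 7.46 CPM in WT libraries. The lowest KO library stood above the highest WT library. Its log2 fold change was 0.51, with a 95% interval from 0.15 to 0.87 (edgeR adjusted p = 0.172). Its nearest row with the deposited type protein_coding, AB041803 at 1918 bases, had too few reads to be tested. GENCODE M21 names that gene Lncpint and types it lincRNA.

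9930104L06Rik (chr4:124937048-124944656, plus strand), a protein-coding gene in both later annotations, had 19.6, 17.6, 19.95 and 19.7 CPM in KO libraries and 24.1, 22.9, 22.7 and 22.5 CPM in WT libraries. The groups did not overlap and each was narrow. The estimate was a log2 fold change of -0.26, with a 95% interval from -0.45 to -0.07 (edgeR adjusted p = 0.177). Cdca8, a chromosomal passenger protein gene that it overlaps on the opposite strand, stood at 2.79 to 4.71 CPM in KO libraries and 2.54 to 4.39 CPM in WT libraries.

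1500017E21Rik (Hectd2os; chr19:36614052-36705641, minus strand), antisense to Hectd2, had 13.6, 15.1, 7.90 and 9.56 CPM in KO libraries and 4.82, 8.35, 7.30 and 6.81 CPM in WT libraries. KO1 and KO2 stood above the rest, and KO3 lay below WT2. This was the highest log2 fold change of the 63 (0.75, 95% interval 0.19 to 1.31; edgeR adjusted p = 0.189). Of the row's exonic bases 46.1% overlap opposite-strand exons in GENCODE M21, and Hectd2 itself had a log2 fold change of -0.03.

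D830026I12Rik (chr6:17197751-17210152, plus strand) had 7.08, 10.7, 10.7 and 6.15 CPM in KO libraries, against 12.1, 14.4, 14.4 and 11.9 CPM in WT libraries. The groups did not overlap, and KO1 and KO4 were the lowest libraries. This gave a log2 fold change of -0.61, with a 95% interval from -1.07 to -0.15 (edgeR adjusted p = 0.196), and -0.99 without KO2 and KO3. The nearest protein-coding gene, Cav2, the gene of the caveolar protein caveolin-2, lay 71033 bases away and had a log2 fold change of -0.34 (edgeR adjusted p = 0.317).

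Nlrc5 (chr8:94472763-94527272, plus strand) had 55.7, 35.9, 36.7 and 36.0 CPM in KO libraries and 77.7, 50.7, 45.9 and 66.5 CPM in WT libraries. The libraries numbered 1 were highest in both groups, and KO1 lay above WT2 and WT3. The log2 fold change was -0.55, with a 95% interval from -1.01 to -0.10 (edgeR adjusted p = 0.226). The summed level of 8 lymphocyte markers was likewise highest in KO1 and WT1 of their groups, at 148, 74.2, 106 and 70.5 CPM in KO libraries and 267, 61.2, 67.4 and 105 CPM in WT libraries, and the part of lymphocytes in the Nlrc5 level was not tested.

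4933431E20Rik (chr3:107888850-107896213, minus strand) had 7.85, 17.3, 16.5 and 9.76 CPM in KO libraries, against 7.40, 7.76, 7.46 and 9.30 CPM in WT libraries. KO2 and KO3, the libraries high in duct epithelium markers, were the highest, and KO1 lay inside the WT range. The log2 fold change was 0.69, with a 95% interval from 0.10 to 1.27 (edgeR adjusted p = 0.240), and 0.16 without KO2 and KO3. It overlaps Gstm5, a glutathione S-transferase gene on the opposite strand, which had 36.9, 196, 185 and 48.1 CPM in KO libraries and 30.4, 28.5, 33.7 and 29.9 CPM in WT libraries. Of the row's exonic bases 16.7% overlap opposite-strand exons, and what Gstm5 reads contribute to the row was not tested.

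Gm15545 (chr7:44986900-44994597, plus strand) had 6.39, 6.52, 7.49 and 5.33 CPM in KO libraries and 5.25, 4.82, 4.59 and 5.37 CPM in WT libraries, a log2 fold change of 0.36 (95% interval -0.01 to 0.73; edgeR adjusted p = 0.320). KO4 lay inside the WT range. 2500004C02Rik (chr2:153341157-153346073, minus strand) had 5.08, 7.78, 7.08 and 4.66 CPM in KO libraries and 4.39, 4.23, 4.76 and 4.78 CPM in WT libraries. KO2 and KO3 were again the highest, and the log2 fold change of 0.44 (95% interval -0.03 to 0.90; edgeR adjusted p = 0.336) was 0.11 without them. The protein-coding genes that these rows overlap on the opposite strand, Bcl2l12 and Asxl1, had log2 fold changes of -0.04 and -0.29 (edgeR adjusted p = 0.867 and 0.226).

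**Figure D3:**
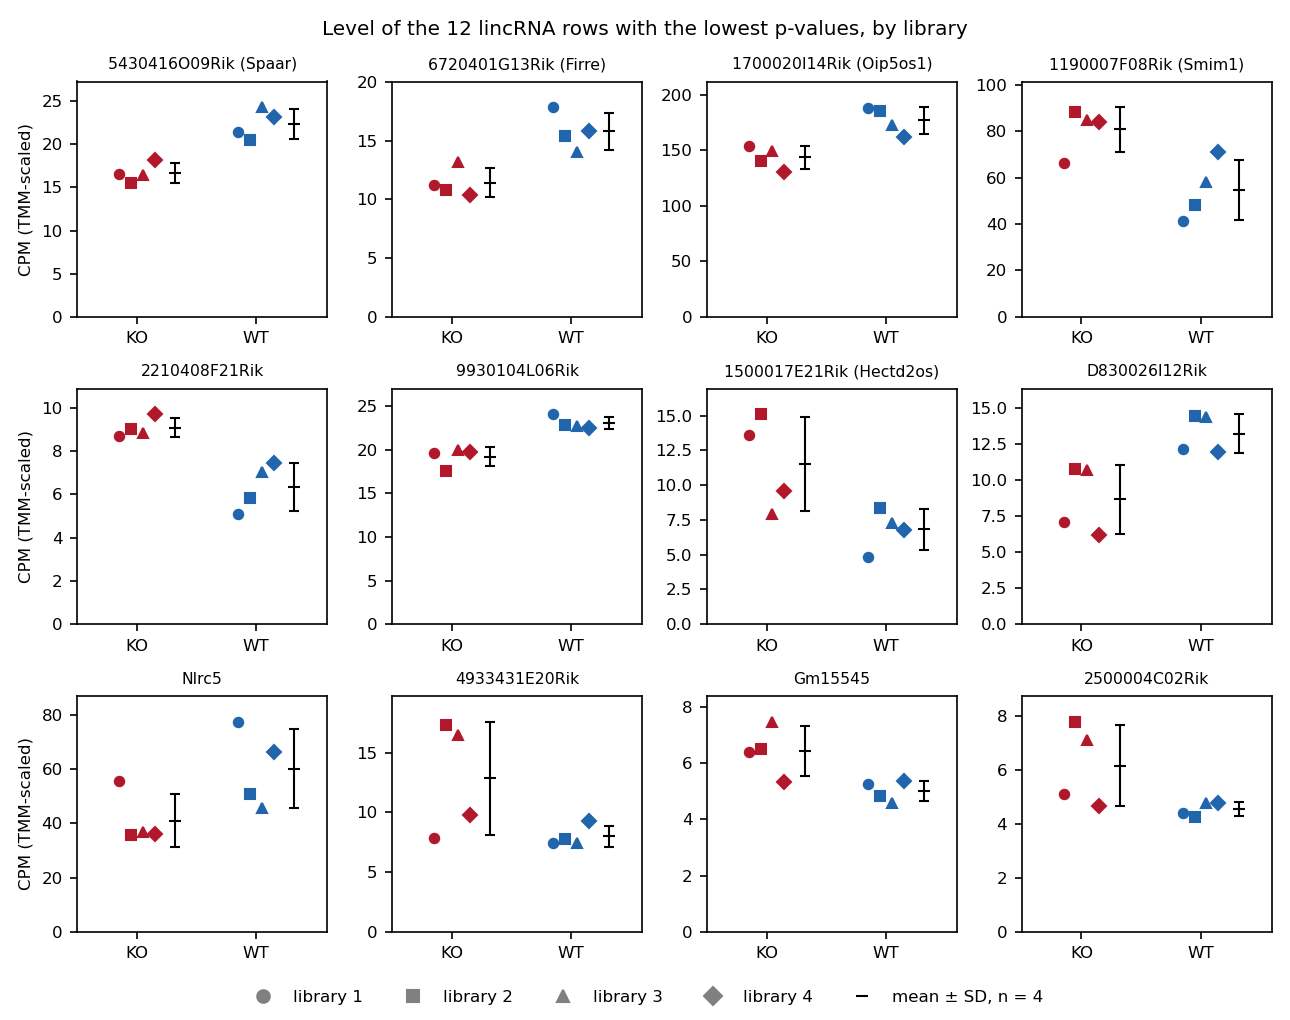
CPM of the 12 rows with the lowest p-values, with KO libraries (red) left of WT libraries (blue), 1 marker shape per library number and the mean ± SD of 4 libraries beside each group. The groups do not overlap in 6 of the 12 panels, 5430416O09Rik, 6720401G13Rik, 1700020I14Rik, 2210408F21Rik, 9930104L06Rik and D830026I12Rik.

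Among RNAs of nuclear bodies and chromosome architecture, Malat1 had 353, 373, 369.9 and 303 CPM in KO libraries and 472, 348, 272 and 353 CPM in WT libraries. The WT group held both the highest and the lowest library. Its log2 fold change was -0.05, with a 95% interval from -0.41 to 0.31 (edgeR adjusted p = 0.919). Neat1, outside the 63 by its type, had a log2 fold change of 0.02 at 185 FPKM. Of the 10 names on the list of nuclear body and architectural RNAs, 8 were found, 4 tested and 0 called, with a median of -0.10.

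Tug1, an abundant RNA first described in the retina, had 88.6, 81.2, 81.2 and 70.8 CPM in KO libraries and 99.8, 91.5, 82.8 and 86.3 CPM in WT libraries. Its groups overlapped, and the log2 fold change of -0.16 had a 95% interval from -0.37 to 0.04 (edgeR adjusted p = 0.410). On the list of growth and stress responsive noncoding RNAs, which also holds Cyrano, 7 rows were tested and 0 were called, with a median log2 fold change of -0.30. Meg3, the maternally expressed RNA of the Dlk1-Dio3 imprinted region, had 28.5, 32.2, 42.6 and 32.8 CPM in KO libraries and 18.4, 39.4, 33.7 and 30.1 CPM in WT libraries. WT1 was the lowest and KO3 the highest, and the log2 fold change was 0.16 (95% interval -0.33 to 0.65; edgeR adjusted p = 0.766). Of the imprinted noncoding RNAs on the list, 4 were tested and 0 called, with a median of -0.14.

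Host RNAs of small nucleolar RNAs showed no called difference. Rows of 14 snoRNAs or small Cajal body RNAs lie within 7 of the 63, namely Snhg12, Gm11974 (Snhg15), 9430008C03Rik (Snhg17), 2810008D09Rik (Snhg20), 2410004N09Rik (Epb41l4aos), 2410006H16Rik and A430035B10Rik. Their log2 fold changes ran from -0.15 (9430008C03Rik) to 0.15 (2410004N09Rik), and the lowest edgeR adjusted p was 0.636. Snhg12 had 20.3, 19.3, 19.2 and 16.2 CPM in KO libraries and 26.7, 18.2, 18.8 and 17.6 CPM in WT libraries, with WT1 far above the other 3 WT libraries. 2410006H16Rik, the most abundant of these hosts per length, had 17.1, 20.5, 19.7 and 13.6 CPM in KO libraries and 24.1, 15.05, 18.2 and 16.2 CPM in WT libraries. WT1 was the highest here too, as it was in 4 of the 7. On the fixed list of snoRNA hosts 9 rows were tested and 0 called, with a median of -0.03.

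Rows of 11 microRNAs lie within 5 of the 63, and the log2 fold changes of these hosts ran from -0.09 to 0.16, with a lowest edgeR adjusted p of 0.766. Mir17hg, which carries the 6 microRNAs of the miR-17 cluster (chr14:115042879-115046727, plus strand), had 6.85, 4.74, 5.86 and 4.85 CPM in KO libraries and 7.22, 6.64, 5.41 and 4.52 CPM in WT libraries, with overlapping groups. 2610203C20Rik (Mir100hg in RefSeq), which holds the Mir125b-1 row, had 33.9, 39.4, 41.9 and 25.7 CPM in KO libraries and 42.7, 33.6, 38.4 and 33.4 CPM in WT libraries. Its log2 fold change was -0.07. A430104N18Rik (Mir142hg; chr11:87755577-87757270, plus strand), the host of the blood cell microRNA miR-142, had 9.85, 5.48, 5.79 and 4.23 CPM in KO libraries and 10.1, 4.47, 4.27 and 6.09 CPM in WT libraries. KO1 and WT1 were nearly level and stood above all others, and these libraries also had the highest summed lymphocyte markers. The log2 fold change was 0.03, with a wide 95% interval from -0.75 to 0.81. On the list of microRNA hosts 8 rows were tested and 0 called, with a median of -0.08.

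**Figure D4:**
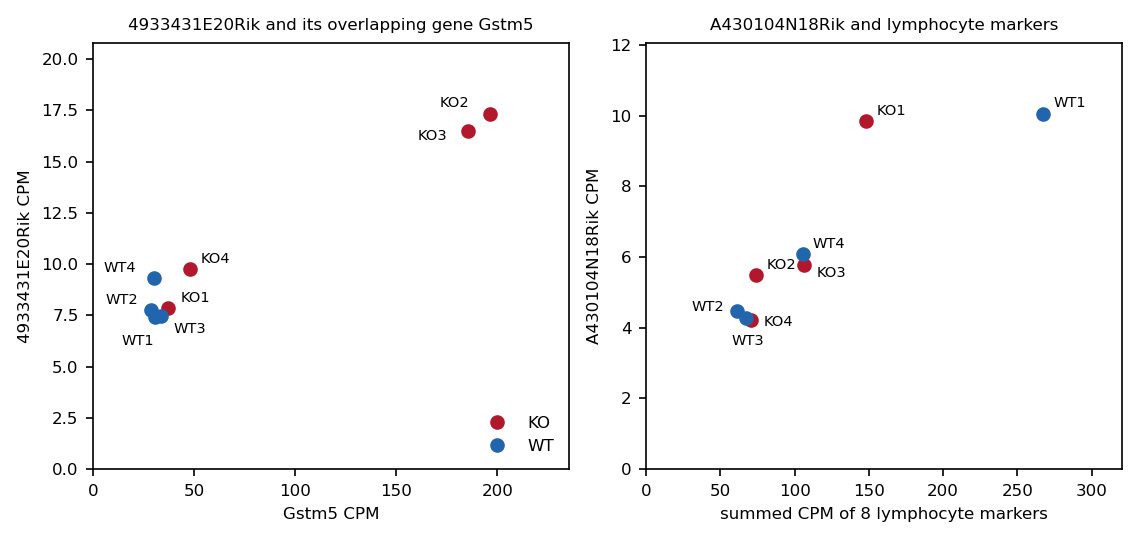
Left, CPM of 4933431E20Rik against CPM of Gstm5, the gene it overlaps, and right, CPM of A430104N18Rik against the summed CPM of 8 lymphocyte markers, 1 point per library with KO in red and WT in blue. KO2 and KO3 stand apart on the left at 17.3 and 16.5 CPM, and KO1 and WT1 stand apart on the right at 9.85 and 10.1 CPM.

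Among the rows that later annotations type as protein-coding, 4 of 9 reached an unadjusted p under 0.05, against 6 of the other 54 and 16.2% of all tested genes, and nothing is read from the split. Mtln (1500011K16Rik) had 20.1, 18.4, 20.2 and 22.4 CPM in KO libraries and 16.9, 22.2, 26.5 and 21.5 CPM in WT libraries, a log2 fold change of -0.10 (95% interval -0.42 to 0.21; edgeR adjusted p = 0.755). The KO values lay inside the WT range. BC029722 had 60.5 to 69.1 CPM in KO libraries and 53.0 to 79.2 CPM in WT libraries, 1810058I24Rik had 103 to 126 CPM in KO and 73.0 to 133 CPM in WT, and C330006A16Rik had 68.2 to 83.6 CPM in KO and 72.1 to 87.8 CPM in WT. In each of these 3 the groups overlapped and the edgeR adjusted p was at least 0.670. Gm11818 (Triqk, an endoplasmic reticulum membrane protein) had 5.54, 5.48, 5.45 and 5.72 CPM in KO libraries and 4.39, 4.94, 4.18 and 4.52 CPM in WT libraries. These groups did not overlap, with a log2 fold change of 0.30 (95% interval -0.03 to 0.63; edgeR adjusted p = 0.359).

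None of the other rows came near the threshold. Of the remaining 31, with group means from 4.79 to 75.1 CPM, 10 had positive and 21 negative log2 fold changes, from -0.53 (B430010I23Rik) to 0.22 (4933421O10Rik), and the lowest edgeR adjusted p was 0.340. Among them 2900005J15Rik was the only one without overlap between the groups, at 13.3 ± 1.15 CPM in KO and 15.2 ± 0.268 CPM in WT (SD, n = 4 each). The rows with the steadiest levels over the 8 libraries were Gm17251, with a coefficient of variation of 6.22%, and 4930412C18Rik, with 6.48%. The least steady were 4933431E20Rik (39.4%), 1500017E21Rik (38.1%) and A430104N18Rik (37.8%). The median over the 63 was 18.2%, against 15.5% for all tested genes.

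WT1 was the library with the highest level for 28 of the 63 rows (44.4%), against 20.5% of all tested genes, as a description of this library. It was also the highest for 13 of the 29 among them with a mean count of at least 200 (44.8%). WT1 has the fewest reads, so a count of 50 asks for a higher level per read there than in the other libraries. The 28 and the 29 rows all passed this threshold, so their shares are not independent of the selection. What the selection contributes to them was not tested. Among the 81 lincRNA rows with a mean count of at least 50, whatever their lowest count, 30 (37.0%) were highest in WT1. Of the 18 lincRNA rows with a mean count of at least 50 that missed the threshold in some library, 2 (11.1%) were highest in WT1. These 18 were in turn set apart by a low count in some library, so this share also depends on the threshold. Of the rows typed protein-coding in a later annotation, 2 of 9 were highest and 4 of 9 lowest in WT1, against 26 and 9 of the other 54. The same library had the lowest total count and the highest summed levels of lymphocyte markers (267 CPM), of nuclear speckle protein genes (4149.8 CPM, against 2870.2 to 3289 CPM in KO libraries and 3058 to 3471 CPM in the other WT libraries) and of paraspeckle protein genes (1745 CPM, against 1349.5 to 1493 CPM in KO and 1518 to 1542 CPM in the other WT libraries). Their part in the lincRNA levels was not tested. KO4, the library with the most reads, had the lowest CPM for 21 rows. A count of 50 asks for less per read in KO4 than in the other libraries, and 0 rows had their smallest count in KO4. The part of depth in the 21 was not tested. Nothing is read from the 21, and the share over all tested genes is not given.

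Protein-coding genes next to the 63 rows were tested in 58 cases, and 0 were called by edgeR. Row and neighbour had a log2 fold change of the same sign in 35 of the 58 pairs. Across these pairs Pearson's r was 0.32 and Spearman's rho 0.32, and across the 19 pairs that overlap Pearson's r was 0.45. These are descriptions across genes, which share the 8 libraries, and reads of overlapping genes may be shared.

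Genes whose proteins work with such RNAs were followed as lists. Of 16 tested paraspeckle protein genes, 0 were called, with a median log2 fold change of -0.13, against -0.01 over all tested genes. Among them Pspc1 had a log2 fold change of -0.27 (edgeR adjusted p = 0.174) and Hnrnpa1 one of -0.44 (edgeR adjusted p = 0.296). Of 14 tested nuclear speckle genes, 0 were called and 13 had a negative log2 fold change, with a median of -0.16. Over all tested genes, 7758 of 14800 were negative. The summed level of the speckle genes was highest in WT1, and WT3 lay inside the KO range. Son, a scaffold of the speckle, stood at 294 ± 25.3 CPM in KO and 373 ± 40.8 CPM in WT (SD, n = 4 each; log2 fold change -0.34, edgeR adjusted p = 0.171), followed by the splicing factor Sf3b1 (-0.22, 0.280) and by Srrm2 (-0.39, 0.331).

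Nonsense-mediated decay is known to remove many spliced noncoding RNAs that ribosomes engage. Of its 14 tested genes 0 were called, with a median of -0.06. Smg5, which recruits decay enzymes to the target RNA, had 55.9, 57.4, 57.9 and 59.1 CPM in KO libraries and 72.3, 67.7, 70.3 and 81.6 CPM in WT libraries. Its groups did not overlap, with a log2 fold change of -0.34 (edgeR adjusted p = 0.0956). The kinase gene Smg1 had a log2 fold change of -0.18 (edgeR adjusted p = 0.417). Of 18 tested imprinted protein-coding genes 0 were called, with a median of -0.03. Nnat, an imprinted gene of a small membrane protein, had 1199, 874, 1082 and 1058 CPM in KO libraries and 1361, 1842, 2398 and 1824 CPM in WT libraries (log2 fold change -0.82, edgeR adjusted p = 0.0989), and Slc22a18 (0.49, 0.210) and Grb10 (-0.25, 0.254) were next.

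The marker lists of other cell types had 0 called genes each. The median log2 fold change was -0.29 for 10 adipocyte, 3.57 for 9 duct epithelium, 0.19 for 8 macrophage, -0.25 for 8 endothelial, -0.12 for 8 fibroblast, -0.39 for 8 lymphocyte and 0.28 for 5 mesothelial genes tested. Of the 15 duct epithelium genes, 9 were tested. All 9 were higher in KO at an unadjusted p of edgeR under 0.05, against 8.52% of all tested genes. Genes nearly absent from WT libraries could pass the filter only through KO libraries, so for those the direction was set beforehand. The highest sums of the list were in KO2 and KO3. The median of the 63 lincRNA rows without these libraries is given above.

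Below the threshold, 139 further lincRNA rows had enough reads to be tested, and 0 of them were called by edgeR. An unadjusted p under 0.05 was reached by 15 of these 139 (10.8%, against 16.2% of all tested genes), of which 8 were higher in KO, and the lowest adjusted p was 0.0698.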

How the data were processed

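RNA of epididymal fat from 4 KO and 4 WT mice was measured by poly(A) RNA sequencing with single reads of 50 cycles on a stranded kit, per the labels' protocols. Novoalign 2.8.1, Picard and build mm10 are named in the submitters' processing notes, whereas the program and annotation behind the counts are not stated there. The authors deposited 1 table with raw read counts and FPKM values per gene and library, per the file headers. Each of the 158499 FPKM values above 0 equals count over exonic length and library total within 0.1%, so the deposited FPKM served only for levels compared between genes. Groups come from the sample titles, and no library pair of 1 genotype agreed within sampling noise (lowest chi-square per gene 19.5).

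Counts were tested in R 4.3.3 with edgeR 4.0.16: filterByExpr (minimum count 10, which kept 14800 of 37417 genes), TMM scaling, glmQLFit and glmQLFTest with no covariate, and Benjamini-Hochberg adjustment over all tested genes, called at 0.05. Intervals are at 95% and, like SE, derive from that test. The p-values of edgeR weigh the difference between the genotypes against the variation between these mice, which edgeR moderates across genes. Totals of 10986375 to 21688464 counts set the precision. DESeq2 1.42.0, limma-voom (limma 3.58.1), robust edgeR, RLE, upper quartile and plain library size scaling, a filter of 1 CPM in 4 libraries or none, the replicate number as a block, other count thresholds for the rows, each library left out in turn, and KO2 and KO3 left out together were the alternatives. The count of rows not protein-coding in GENCODE M21 was an alternative chosen after seeing the data. The test script was checked on simulated counts. There it called 11 of 50 genes set to differ by 1.5-fold (22%) and 29 of 50 set to differ by 2-fold (58%). It called 39 of 50 at 3-fold and 43 of 50 at 4-fold, and 5 genes that were set not to differ.

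Table coordinates matched GENCODE M21 after adding 1 to the start, and 32608 identifiers were found there. Small RNA rows were assigned to hosts by position. Named were Atg3, the 12 rows with the lowest adjusted p, the 8 with the highest FPKM, rows on the noncoding RNA lists, the 3 rows on each side of the threshold, nearest protein-coding genes of the 12, and up to 3 genes of each protein-coding list; other names (2900005J15Rik, B430010I23Rik, 4933421O10Rik, 4930412C18Rik, 4833418N02Rik, Atp10d, Neat1, Gas5, H19, Adipoq and Plin1) were chosen after their values were seen. Some genes that the rule took are left out of the text. The rows and gene lists were chosen with earlier results of these data known.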

Additional observations from a re-analysis of the deposited data

Results flagged for a closer look

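In groups of 4 libraries, the library farthest from the rest was compared with the spread of its group by Dixon's 95% criterion, which chance alone meets in about 1 of 20 groups. Of 78 groups tested, over the named rows and the marker sums, 4 met it. KO2 stood at 17.56 CPM for 9930104L06Rik, below the other KO libraries at 19.6 to 19.95 CPM. KO1 stood at 55.71 CPM for Nlrc5, above the other KO libraries at 35.9 to 36.7 CPM. WT1 stood at 26.66 CPM for Snhg12, above the other WT libraries at 17.6 to 18.8 CPM. KO4 stood at 1608 CPM for the summed endothelial markers, above the other KO libraries at 1420.1 to 1451 CPM.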

How the results depend on the processing

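Of the 63 lincRNA rows, DESeq2 called 4 (5430416O09Rik, 1700020I14Rik, 6720401G13Rik and 1190007F08Rik), and each other scaling, filter, test or set of libraries called 0. Also 0 were called among the 105, 36 and 81 rows with at least 20 or 100 counts in each library or a mean of at least 50, and among the 56 rows not protein-coding in GENCODE M21. Over all genes, against 60 in the edgeR test, DESeq2 called 810, the replicate block 14, and the test without KO2 and KO3 3; leaving out 1 library at a time gave 0 to 290. Deviations of same-numbered libraries correlated at 0.18, -0.11, -0.25 and 0.06 for numbers 1 to 4, and only number 1 correlated best with its own number. These 4 correlations show no pairing by replicate number, but they are too few to exclude one. The 12 rows with the lowest p kept their direction in all 18 alternatives, as did 19 of the 32 named rows. In the other 13, none of them called, the log2 fold change crossed 0 when 1 library was left out: -0.205 to 0.00425 for 1500011K16Rik, -0.178 to 0.0444 for Snhg12, -0.0177 to 0.308 for Meg3, -0.0292 to 0.293 for 2810008D09Rik, -0.161 to 0.0558 for 2610203C20Rik, -0.209 to 0.0124 for Mir17hg, -0.00951 to 0.0857 for Gm17251, -0.0331 to 0.168 for BC029722, -0.158 to 0.111 for Malat1, -0.140 to 0.104 for 2410006H16Rik, -0.0116 to 0.0891 for C330006A16Rik, -0.114 to 0.107 for Gm11974 and -0.269 to 0.357 for A430104N18Rik. Without KO2 and KO3 it was -0.177 for 2810008D09Rik and -0.0257 for C330006A16Rik. The cause of these shifts was not tested. With counts from 50 upward and 4 mice a genotype, the 95% interval lay inside 1.5-fold for 31 of the 63 rows, and the counting strand is unknown for rows that overlap other genes.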
